A study of Mus musculus with 22 samples.

Results

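The hippocampal CA1 region of CR mice at 15 months was compared with that of AL mice at 5 months, to see which transcripts still differed from the younger, freely fed state after long restriction. These 2 groups hold 11 of the 22 libraries of the series, with 6 mice at 15 months on calorie restriction (CR) and 5 mice at 5 months fed ad libitum (AL), chosen by the diet and age in the sample labels. Every animal in both groups was a wild-type female from a cross of Swiss Webster with DBA/C57BL6, and each library came from 1 mouse, so age and diet differed together and cannot be told apart in this contrast alone. The CR diet was restricted in carbohydrates and was eaten from a morning allotment, whereas AL food was always present, and all mice were killed in the middle of the afternoon. The other 11 libraries, 6 AL mice at 15 months and 5 CR mice at 5 months, share no mouse with this comparison and were used to see how the same genes behaved in an independent contrast of the 2 ages.

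CA1 is the output field of the hippocampus, where pyramidal neurons receive Schaffer collaterals from CA3 and project to the subiculum. It lies beneath white matter and the lateral ventricle, whose wall carries ependymal cells with motile cilia and whose choroid plexus secretes cerebrospinal fluid. Calorie restriction lowers energy intake without malnutrition and is known to alter stress hormone, chaperone and circadian gene expression in several tissues.

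Expression is given as FPKM, a fragment count scaled to transcript length and to the library's mapped fragments, as the authors deposited it. Fold changes are differences of group means of log2(FPKM + 0.1), which understate changes of genes with low FPKM. They were fitted with limma over all 4 groups, with the standard error (SE) of the fit. Calls required an adjusted p (Benjamini-Hochberg, two-sided) below 0.05 across 16978 genes, all of which averaged 0.1 FPKM or more over the series. Across the 22 libraries the median FPKM ranged from 2.51 to 3.10 and 18281 to 19175 genes were above 0. On the first principal component, which held 14.4% of the variance, CR 15-month libraries 0 and 5 lay at 30.2 and 41.5, within the range of the AL 15-month libraries (22.8 to 58.8). The other 4 CR 15-month libraries lay between -4.72 and 10.9, and AL 5-month libraries between -51.3 and -10.1. MicroRNA and small nucleolar RNA genes held 53.6% to 60.9% of the summed FPKM in AL 5-month libraries and 43.1% to 55.6% in CR 15-month libraries, and their part in the results was not tested beyond leaving these genes out. Libraries 0 and 5 were also left out together, as a check chosen after seeing the data. Dorsal CA1 marker transcripts were present in every library, none of the 12 being listed at 0 in either group, and their summed level is given below.

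In total, 529 of 16978 genes (3.12%) were called between CR 15-month and AL 5-month mice. Of these, 235 (1.38%) were higher and 294 (1.73%) were lower in the CR mice, and 3275 genes had an unadjusted p under 0.05. Decreases were larger than increases, with a median log2 fold change of -1.01 among the lower genes and 0.55 among the higher genes. A decrease of at least 2 on the log2 scale was seen for 47 called genes and an increase of that size for 3, namely Alox12e, Agxt2l1 and Tnnt2, of which Alox12e and Tnnt2 are named after their values were seen. The 2 sets of libraries did not overlap in 499 genes (2.94%), of which 219 (1.29%) were higher and 280 (1.65%) lower in CR mice, and 312 of the 499 were called. When each of the 11 libraries was left out in turn, 160 genes were called every time, 58 higher and 102 lower. The count itself moved from 181 without AL 5-month library 2 to 925 without CR 15-month library 2. It was 211 and 297 without AL 5-month libraries 4 and 1, 342 without CR 15-month library 0 and 842 without CR 15-month library 3. Without CR 15-month libraries 0 and 5 together it was 238, with 82 higher and 156 lower. With the filter raised to a mean of at least 1 FPKM it was 340, with 184 higher and 156 lower.

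The list with the most called genes was that of motile cilia. Of 10 ependymal and motile cilia genes, 9 were called lower in CR 15-month mice (90%, against 1.73% of all tested genes). All 10 had a negative fold change, with a median of -2.43, against a median of -0.00 over all tested genes. Tmem212, a membrane protein gene used as an ependymal marker (chromosome 3, 27866066 to 27896368, GRCm38), had 2.80, 4.56, 11.3, 3.99 and 8.93 FPKM in the 5 AL mice at 5 months. The 6 CR mice at 15 months had 0.201, 0.552, 0, 0, 0.412 and 0.886 FPKM. Every CR library was thus below every AL library, and 2 of them listed the gene at 0. The log2 fold change of Tmem212 was -4.16 (SE 0.72, adjusted p = 0.00367; exact two-sided permutation p = 0.00216, the smallest that 5 against 6 libraries allow).

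Foxj1, the transcription factor that switches on the motile cilia program, had 2.57, 4.57, 8.16, 4.06 and 7.60 FPKM in AL mice and 1.16, 1.54 and 2.25 FPKM (lowest, median and highest) in CR mice. The groups did not overlap, and the decrease of -1.64 (SE 0.32, adjusted p = 0.00859) was smaller than that of most of its list. Dynlrb2, a dynein light chain, ranged from 2.27 to 10.6 FPKM in AL mice and from 0.0634 to 1.43 FPKM in CR mice (log2 fold change -3.19, SE 0.55, adjusted p = 0.00328). Ak7, an adenylate kinase of the axoneme, fell by 2.98 and Ccdc153 by 2.89 on the log2 scale. The radial spoke gene Rsph1, the highest of the list in FPKM, fell by 1.48 (SE 0.37, adjusted p = 0.0332), and its groups overlapped. Pifo (-2.29), 1700009P17Rik (-2.58) and the dynein heavy chain gene Dnahc11 (-1.35) completed the called members. Hydin, a central apparatus gene with 0.318 and 0.134 FPKM on average in AL and CR mice, was not called (-0.92, adjusted p = 0.149).

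**Figure D1:**
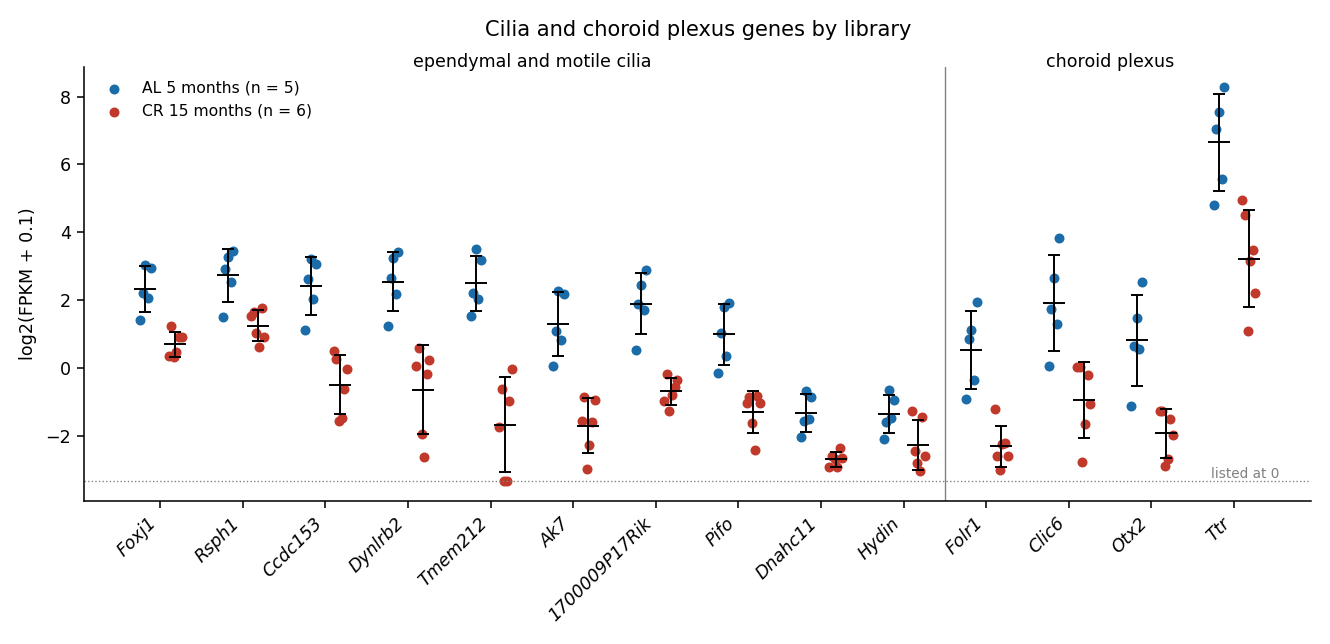
Each point is 1 library on a log2(FPKM + 0.1) axis for 10 ependymal and motile cilia genes and the 4 called choroid plexus genes, with AL 5-month mice in blue (n = 5), CR 15-month mice in red (n = 6), and bars for the mean and SD. CR libraries sit below AL libraries with no overlap in 8 of the 10 cilia genes, against 1.65% of all tested genes. The dotted line marks the value of a gene listed at 0.

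Several further decreases of this size were in genes outside the list. Among the 12 largest decreases of called genes, with a mean of at least 1 FPKM in a group and no overlap, were Sntn (-3.06), which encodes a protein of the ciliary tip, and the dynein light chain gene Tctex1d4 (-3.12). Stoml3 (-3.26), a stomatin family membrane protein, Fam216b (-2.92) and Calml4 (-3.02), a calmodulin-like protein, were also among them. Krt15, a keratin, had 0.339, 1.17, 2.11, 0.676 and 1.48 FPKM in AL mice. It was listed at 0 in 4 of 6 CR libraries, with 0.0159 and 0.0488 FPKM in the other two (log2 fold change -3.31, SE 0.38, adjusted p = 0.000129). Crygn, a crystallin gene, ranged from 0.947 to 2.79 FPKM in AL mice and from 0.0475 to 0.261 FPKM in CR mice (-2.92, SE 0.33, adjusted p = 0.000129). The summed FPKM of the 10 cilia genes was 15.8, 37.0 and 62.7 (lowest, median, highest) in AL mice and 3.79, 7.95 and 10.2 in CR mice, so the groups did not overlap. In bulk tissue, fewer cells of a type and less RNA per cell cannot be told apart. Of the 10 genes, 7 to 9 were called when single libraries were left out, and 6 without CR 15-month libraries 0 and 5. With a region score or a choroid plexus score as a covariate, described with the marker genes, 2 and 3 of the 10 were called, while the median of the list was -2.22 and -1.61. Tmem212 was then -4.30 and -3.60, and Dynlrb2 -3.42 and -2.56, with both still called.

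Choroid plexus genes pointed the same way with a wider spread. All 13 had a negative fold change (median -1.41), and 4 were called lower (30.8%, against 1.73% of all tested genes). Ttr, which encodes the thyroxine carrier transthyretin, had 27.9, 133, 185, 47.4 and 314 FPKM in AL mice and 2.04, 9.94 and 30.6 FPKM (lowest, median, highest) in CR mice. The highest CR library was above the lowest AL library, and the log2 fold change was -3.42 (SE 0.87, adjusted p = 0.0353). Folr1, a folate receptor (-2.84, adjusted p = 0.0359), Otx2, a transcription factor of the plexus (-2.74, adjusted p = 0.0243), and Clic6, a chloride channel protein (-2.86, adjusted p = 0.0449), did not overlap between the groups. Kl, which encodes klotho, averaged 9.90 ± 2.9 FPKM (SD, n = 5) with AL feeding against 4.40 ± 2.8 FPKM (SD, n = 6) under CR and was not called (-1.32, adjusted p = 0.146). Without AL 5-month library 2 or 4 no choroid plexus gene was called, and without AL 5-month library 1 or CR 15-month library 5 only 1 was. Over the 11 fits that left out a library the median of the list ranged from -1.74 to -1.19. With CR 15-month libraries 0 and 5 left out together no gene was called and the median was -1.76. The summed FPKM of the list was 40.5, 154 and 369 in AL mice and 8.19, 19.7 and 37.8 in CR mice.

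A single myelin gene passed the test with all libraries, and 1 CR library stood apart from the others. All 12 mature oligodendrocyte genes had negative fold changes between -1.81 and -0.58 (median -0.84). Their summed FPKM was 1266, 1537 and 2001 (lowest, median, highest) in AL mice and 451, 894 and 2224 in CR mice. The mean log2 level of the list was 6.38 in CR library 5, above all AL libraries (5.56 to 6.24), and 3.83 to 5.37 in the other CR libraries, below all AL libraries. Without CR library 5 the median was -1.14 and 8 of the 12 genes were called lower, whereas without AL library 2 or 4 none was. Opalin, a glycoprotein of the myelin paranode, had 20.0, 21.1, 19.4, 22 and 23.7 FPKM in AL mice and 2.73, 5.72 and 16.6 FPKM (lowest, median, highest) in CR mice. No CR library reached the AL range, and the log2 fold change was -1.81 (SE 0.41, adjusted p = 0.0191). In AL 15-month against CR 5-month mice the corresponding value was -0.33 (adjusted p = 0.597), and the difference between these values did not pass its own test (adjusted p = 0.311). Mbp, the myelin basic protein gene and the most abundant of the list, averaged 726 and 541 FPKM in AL and CR mice (-0.58, adjusted p = 0.299). Oligodendrocyte precursor genes had a median of -0.28 with 0 of 10 called, 3 of them at an unadjusted p under 0.05.

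Few markers of hippocampal fields and neighboring regions passed the adjusted threshold, although most CA1 markers were lower. In AL 15-month against CR 5-month mice 7 of 12 CA1 pyramidal neuron genes were called lower and 1 higher. Of all tested genes 11.8% were called lower and 11.9% higher in that contrast. Between CR 15-month and AL 5-month mice 10 of the 12 had negative fold changes (median -0.63), and 8 had an unadjusted p under 0.05. Only Ociad2 was called between these groups (-0.71, SE 0.16, adjusted p = 0.0169). It made up 8.33% of the list, against 1.73% of all tested genes called lower. The CA1 markers Fibcd1, Lefty1 and Spink8 had the largest fold changes of the list (-2.43, -2.28 and -2.14) with adjusted p between 0.0691 and 0.0935. Of 10 CA2 and CA3 genes Amigo2 (-1.56) and Rgs14 (-1.24) were called lower (20%, against 1.73% of all tested genes). Neither was called with CR 15-month libraries 0 and 5 left out together. Amigo2, an adhesion molecule of CA2, had 10.3 to 16.8 FPKM in AL mice and 2.33 to 4.14 FPKM in 5 CR mice, but 16.9 FPKM in CR library 4. Of 14 neocortex and subiculum genes 4 were called higher and 1 lower in AL 15-month against CR 5-month mice, against 11.9% and 11.8% of all tested genes. Between CR 15-month and AL 5-month mice 3 of the 14 had an unadjusted p under 0.05. Cux2, a transcription factor of upper cortical layers, was the single called gene between these groups (1.19, SE 0.28, adjusted p = 0.0264). It made up 7.14% of the list, against 1.38% of all tested genes called higher. It had 4.72, 4.70, 4.79, 4.10 and 5.11 FPKM in the AL mice, and 4.47, 11.8 and 17.9 FPKM (lowest, median, highest) in CR mice. No dentate granule cell gene was called (0 of 10, median -0.15, with 0 at an unadjusted p under 0.05), nor was any thalamus gene (0 of 9, median 0.19, with 2). The summed FPKM of the CA1 genes was 706 to 1169 in AL mice and 442 to 912 in CR mice, and that of the neocortex and subiculum genes was 162 to 201 and 148 to 327. A region score, the mean log2 level of the neocortex and subiculum genes minus that of the CA1 genes, ranged from -3.64 to -2.32 in AL mice and from -3.29 to -1.16 in CR mice. With this score as a covariate 67 genes were called, 51 of them among the 529, including Tmem212, Dynlrb2, Krt15, Agxt2l1, Cry1, Lin28b and Gsg1l. Of the 75 called genes examined one by one, 16 remained called. Astrocyte, microglia, endothelial and interneuron lists, with 12 genes each, had no called member and medians between -0.19 and 0.07, and 1 to 2 members of each had an unadjusted p under 0.05.

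Among higher genes the largest increase by the naming rule was in Agxt2l1, which encodes ethanolamine-phosphate phospho-lyase, an enzyme of phospholipid turnover found in astrocytes (chromosome 3, 130617448 to 130637521, named Etnppl in the annotation). AL 5-month mice had 0.558, 0.326, 0.386, 0.760 and 1.60 FPKM. CR 15-month mice had 3.72, 6.40 and 14.7 FPKM (lowest, median, highest). The lowest CR mouse was thus above the highest AL mouse by more than the whole AL range. Mean FPKM was 10.1 times as high, and the log2 fold change was 3.23 (SE 0.39, adjusted p = 0.000216), with a call in all 11 fits that left out a library and an adjusted p of 0.000148 to 0.00916 over the alternatives.

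The 11 other genes among the 12 largest increases had varied known roles. Lin28b, an RNA-binding protein that blocks let-7 maturation, had 0.480, 0.446, 0.416, 0.399 and 0.356 FPKM in AL mice and 0.874, 1.62 and 2.47 FPKM (lowest, median, highest) in CR mice (1.58, SE 0.19, adjusted p = 0.000216). Gsg1l, an auxiliary subunit of AMPA receptors, had 6.47 to 10.7 FPKM in AL mice and 12.8 to 33.5 FPKM in CR mice (1.44, SE 0.21, adjusted p = 0.00103). For both genes the groups were well separated, and both were called in every fit that left out a library. Drd1a, the dopamine D1 receptor gene, averaged 1.38 ± 0.19 FPKM (SD, n = 5) with AL feeding against 3.88 ± 1.5 FPKM (SD, n = 6) under CR (1.34, SE 0.25, adjusted p = 0.00606). Mef2c, a transcription factor that limits excitatory synapse number, ranged from 15.1 to 28.4 FPKM in AL mice and from 30.5 to 69.7 FPKM in CR mice (1.15, SE 0.28, adjusted p = 0.0277). Wnt10b, a secreted Wnt ligand, had 0.205 to 0.365 FPKM in AL mice and 0.472 to 2.41 FPKM in CR mice (1.44, adjusted p = 0.0111). The remaining members of the 12 largest increases were Ipcef1 (1.46), Ppl (1.34), Ptchd1 (1.13), Exd1 (1.05), Phf21b (1.02) and Rnf207 (1.02). Of the 12, Ipcef1, Ppl, Mef2c and Exd1 were not called in every fit that left out a library.

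In the lists of calcium signaling, axon guidance and transmitter release the share of called genes was 5.56%, 3.64% and 5.26%, near the 3.12% over all genes, so the single genes that follow say nothing of their lists. Of 36 calcium store, pump and kinase genes, Camk2d, a subunit of calcium/calmodulin-dependent kinase II, was higher and Orai3, a store-operated calcium channel, was lower. Camk2d had 7.59 to 11.9 FPKM in AL mice and 11.3, 30.9 and 77.3 FPKM (lowest, median, highest) in CR mice (1.67, SE 0.38, adjusted p = 0.0214), and it was not called with CR 15-month libraries 0 and 5 left out (adjusted p = 0.112; 0.00410 to 0.371 over the alternatives). Orai3 averaged 21.8 ± 1.8 FPKM (SD, n = 5) and 14.5 ± 3.2 FPKM (SD, n = 6), a decrease of -0.61 (SE 0.11, adjusted p = 0.00524) called in all 11 fits that left out a library. With the region score and the choroid plexus score as covariates Orai3 was -0.32 and -0.58 and was not called (adjusted p = 0.136 and 0.0504). The calcium channel subunit gene Cacnb2 was lower (-0.52, adjusted p = 0.0408) and the potassium channel gene Kcnc4 was higher (0.99, adjusted p = 0.0323). Each was the single called gene of its list (27 and 52 genes, 3.70% and 1.92%). Of 38 synaptic vesicle release genes, the calcium sensors Syt7 (0.49) and Doc2a (0.80) were called higher. Of 55 axon guidance genes, Sema3e (-1.1) and Efna3 (-0.40) were called lower. In the Wnt list of 28 tested genes Wif1, a secreted Wnt inhibitor, was lower (-0.72, adjusted p = 0.0332) while Wnt10b was higher, a share of 7.14%. Igfbpl1, a gene of newborn neurons, ranged from 0.236 to 1.18 FPKM in AL mice and from 0.0168 to 0.219 FPKM in CR mice (-2.13, SE 0.42, adjusted p = 0.00873). It was the single called gene of its list of 7 (14.3%). The list otherwise leaned the other way, with 5 positive and 2 negative fold changes (median 0.32). Col11a1, a fibrillar collagen (-1.80, adjusted p = 0.0140), and Uhrf1, a maintenance factor of DNA methylation (-0.72, adjusted p = 0.0216), were each the single called gene of their lists. These lists held 31 and 28 genes, so the shares were 3.23% and 3.57%, near the share over all genes.

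Of 18 chaperone genes of the endoplasmic reticulum (ER), 17 had a positive fold change (median 0.16), against 49.6% of all tested genes. Among them 2 were called higher (11.1%, against 1.38% of all tested genes). Hspa5, the Hsp70 of the ER (also called BiP), had 150, 108, 120, 97.6 and 117 FPKM in AL mice and 143, 155 and 186 FPKM (lowest, median, highest) in CR mice. AL library 0 lay inside the CR range, and the increase of 0.43 (SE 0.12, adjusted p = 0.0475) was called in 2 of 11 fits that left out a library. Hyou1, a large ER chaperone, averaged 29.8 ± 2.5 FPKM (SD, n = 5) and 37.0 ± 2.5 FPKM (SD, n = 6) (0.31, SE 0.08, adjusted p = 0.0457), with a call in 3 of 11 fits. Of 18 cytosolic heat shock genes, the co-chaperone Dnajb1 (0.47, adjusted p = 0.0234) and the small heat shock gene Hspb1 (0.91, adjusted p = 0.0389) were called higher, also 11.1% of the list. Dnajb1 had 23.4 to 27.6 FPKM in AL mice and 30.3 to 44.4 FPKM in CR mice, with no overlap. The abundant Hspa8, at 668 and 723 FPKM, was not called (0.11, adjusted p = 0.664). No member of either list was called with CR 15-month libraries 0 and 5 left out, while the medians were 0.18 for the ER list and 0.045 for the cytosolic list, against 0.16 and 0.048 with all libraries.

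The clock genes Cry1 and Tef were called higher among 18 circadian genes (11.1%, against 1.38% of all tested genes), whose median was 0.26. Cry1, a repressor of the clock feedback loop, had 5.88, 4.66, 3.68, 4.47 and 4.90 FPKM in AL mice and 6.31, 8.94 and 9.77 FPKM (lowest, median, highest) in CR mice. The groups did not overlap, and Cry1 (0.85, SE 0.11, adjusted p = 0.000369) kept its call under every alternative and every omission of a library. Tef, an output factor of the clock that binds D-box elements, had 94.0 to 109 FPKM in AL mice and 112 to 155 FPKM in CR mice (0.35, SE 0.09, adjusted p = 0.0306). Npas2 (0.62), Hlf (0.70) and Per2 (0.47) had positive fold changes with adjusted p between 0.106 and 0.193, and Dbp differed by -0.01. Among interferon-stimulated genes Irf9 (0.47, adjusted p = 0.0216) and among MHC class I genes H2-T22 (1.0, SE 0.23, adjusted p = 0.0201) were the single called members. These lists held 22 and 13 tested genes, so the shares were 4.55% and 7.69%, against 3.12% of all tested genes. H2-T22 had 1.06 to 2.56 FPKM in AL mice and 2.58 to 5.68 FPKM in CR mice, and reads from its near-identical neighbors cannot be told apart in FPKM. Metallothionein 2, a zinc-binding protein induced by glucocorticoids (Mt2), fell from 278 ± 19 FPKM (SD, n = 5) to 162 ± 42.8 FPKM (SD, n = 6), with no overlap (-0.81, SE 0.16, adjusted p = 0.00859). Mt2 and Agxt2l1 were the called members, 1 in each direction, of 18 glucocorticoid target genes (median -0.26). Their share was 11.1%, against 3.12% of all tested genes. The list was chosen with earlier results of these data known, and the study names Agxt2l1 from these same libraries. This share is therefore not independent evidence.

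The called chaperone, clock and MHC class I genes allow a look at the letters of their promoters, read from RefSeq windows on GRCm38.p6. The windows run from 250 bases before to 50 after the start site, and both strands were searched. The ER stress element, CCAAT and CCACG with 9 bases of any kind between them, which binds ATF6 and NF-Y, occurred in the windows of 7 of 16 ER chaperone genes with a window and in 0.119% of all 32851 windows. The 7 genes were Calr, Canx, Creld2, Dnajc3, Hsp90b1, Hspa5 and Pdia6, of which Hspa5 was called. The other called ER chaperone gene, Hyou1, was not among them. The E-box CACGTG, which binds CLOCK and BMAL1, occurred in 5 of 15 clock genes (Bhlhe41, Ciart, Cry1, Per1 and Tef), a set that includes both called genes. Counted by window, it occurred in 6 of 20 windows of clock genes and in 7.15% of all windows. The interferon-stimulated response element, GAAA and GAAA with 2 bases between them, occurred in 4 of 11 MHC class I genes, H2-T22 among them, and in 10 of 16 interferon-stimulated genes. Counted by window, it occurred in 4 of 12 and 10 of 18 windows of these lists and in 3.44% of all windows. Heat shock elements, GAA, TTC and GAA or TTC, GAA and TTC with 2 bases between neighbors, were matched in 4 of 14 cytosolic heat shock genes. Hspb1 and Dnajb1 were not among these genes. Such elements were matched in 5 of 20 windows of this list and in 0.603% of all windows. A match is a description of sequence and not of binding.

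The 250 bases upstream of the start site are shown for 4 called genes with a match, which is in capitals. Hspa5 lies on the + strand at chr2:34771840-34772089, Cry1 on the - strand at chr10:85185055-85185304, Tef on the + strand at chr15:81802423-81802672 and H2-T22 on the - strand at chr17:36042743-36042992. The first base of the match is at -65 in Hspa5, -60 in Cry1, -127 in Tef and -191 in H2-T22, counted from the start site, and the H2-T22 match reads on the opposite strand.
Hspa5: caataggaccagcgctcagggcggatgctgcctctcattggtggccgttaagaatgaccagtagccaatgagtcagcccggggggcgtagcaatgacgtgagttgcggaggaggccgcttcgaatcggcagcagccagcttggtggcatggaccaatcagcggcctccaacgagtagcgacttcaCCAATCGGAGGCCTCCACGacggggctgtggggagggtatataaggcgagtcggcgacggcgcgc
Cry1: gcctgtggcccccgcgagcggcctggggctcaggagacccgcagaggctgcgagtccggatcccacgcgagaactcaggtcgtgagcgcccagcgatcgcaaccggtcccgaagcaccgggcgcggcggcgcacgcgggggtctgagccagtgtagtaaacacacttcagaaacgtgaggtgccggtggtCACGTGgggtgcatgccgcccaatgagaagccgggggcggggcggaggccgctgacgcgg
Tef: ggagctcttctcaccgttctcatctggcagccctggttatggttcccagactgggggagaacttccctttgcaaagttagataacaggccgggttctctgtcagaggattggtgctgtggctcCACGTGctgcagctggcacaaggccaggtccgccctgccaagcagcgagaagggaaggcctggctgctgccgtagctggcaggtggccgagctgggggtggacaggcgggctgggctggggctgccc
H2-T22: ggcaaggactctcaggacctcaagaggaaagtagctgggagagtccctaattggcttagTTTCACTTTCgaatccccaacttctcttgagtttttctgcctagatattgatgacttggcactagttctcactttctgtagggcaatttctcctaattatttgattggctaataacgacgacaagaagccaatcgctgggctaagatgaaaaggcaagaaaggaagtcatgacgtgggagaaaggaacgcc

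The genes called here were then followed in AL 15-month against CR 5-month mice, the contrast of the 2 ages that shares no library with the first. In that contrast 4030 genes (23.7%) were called, 2023 (11.9%) higher and 2007 (11.8%) lower at 15 months. Of the 529 genes, 481 (90.9%) had the same sign there, against 69.9% of all tested genes, and 356 (67.3%) were also called with that sign, against 20.7% of all tested genes. The same sign was found for 277 of 294 lower genes and 204 of 235 higher genes. In the opposite direction, 3511 of the 4030 genes (87.1%) had the same sign in CR 15-month against AL 5-month mice and 356 (8.83%) were called. Their median change, signed by the direction of the first contrast, was 0.22, whereas it was 0.56 in the contrast that chose them. Both shares changed with the region score in the model, where no gene was called in AL 15-month against CR 5-month mice. The score itself did not overlap between those groups, at -3.69 to -3.07 in CR 5-month and -1.93 to -0.85 in AL 15-month mice. That fit therefore cannot separate the score from the contrast.

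**Figure D2:**
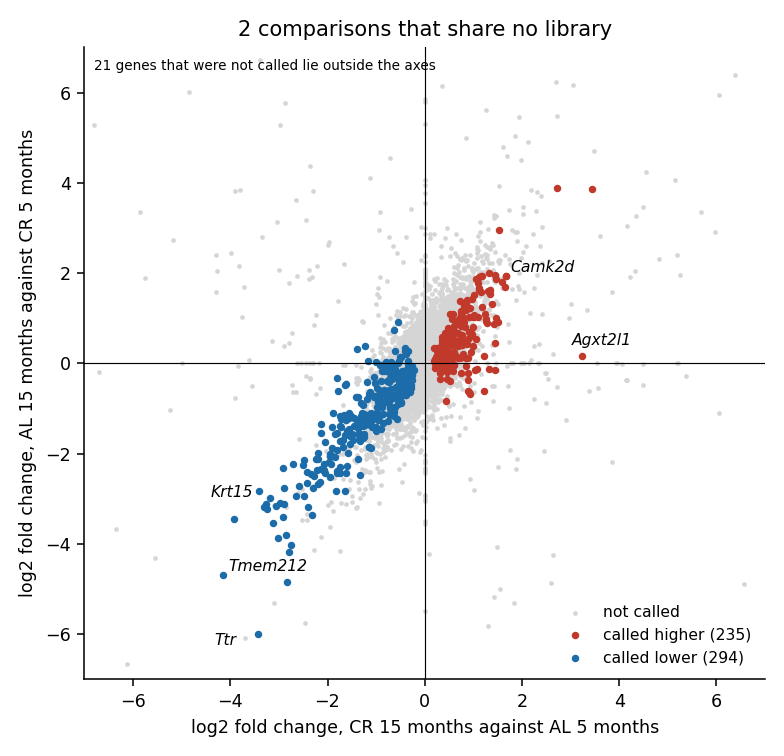
Each point is a gene, with its log2 fold change between CR 15-month and AL 5-month mice on the x axis and between AL 15-month and CR 5-month mice on the y axis; the 235 genes called higher are red and the 294 called lower are blue. Most called genes lie in the quadrants of equal sign, whereas Agxt2l1 lies near 0 on the y axis, and 21 genes that were not called lie outside the axes.

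Cilia genes had large decreases in both contrasts. Tmem212 had -4.16 and -4.70, Dynlrb2 -3.19 and -2.98, and Krt15 -3.31 and -3.17. All 10 cilia genes were called lower in AL 15-month against CR 5-month mice, against 11.8% of all tested genes. The AL 15-month libraries were not uniform. Library 2 had a mean log2 level of the cilia list of 0.90, within the AL 5-month range (0.32 to 2.15) and below the CR 5-month range (1.36 to 2.66). The other AL 15-month libraries had -1.52 to -0.63. In AL 15-month against CR 5-month mice choroid plexus genes had a median of -3.19, with 12 of 13 called lower, against 11.8% of all tested genes. Their mean log2 level was 3.40 and 5.45 in CR 5-month libraries 3 and 4, and 0.99, 1.06 and 0.85 in libraries 0, 1 and 2. In AL 15-month libraries it ranged from -1.68 to -0.32, so the size of this median rests partly on 2 libraries. Lin28b (1.58 and 1.81), Gsg1l (1.44 and 1.96), Drd1a (1.34 and 1.63), Mef2c (1.15 and 1.94) and Camk2d (1.67 and 1.93) were called higher in both. The mean log2 level of the genes called higher minus that of the genes called lower in AL 15-month against CR 5-month mice gave a score for each library that was not used in choosing them. This score was -2.28, -2.04 and -1.78 (lowest, median, highest) in AL 5-month mice and -1.79, -1.42 and -0.95 in CR 15-month mice. A single CR library, number 3, lay just below the highest AL library, and libraries 0 and 5 had the highest scores at -0.95 and -0.98. The 6 AL 15-month libraries, which helped to choose the genes, lay between -1.1 and -0.52.

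**Figure D3:**
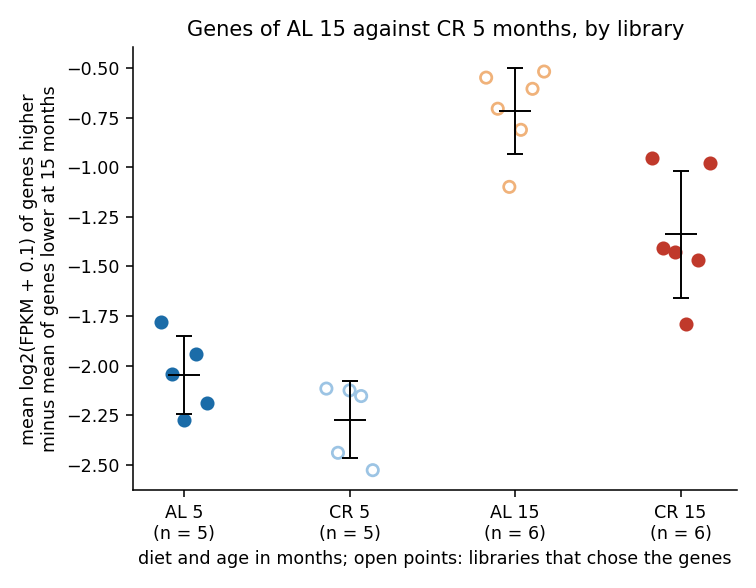
Each point is 1 library, with diet and age in months on the x axis and, on the y axis, the mean log2(FPKM + 0.1) of genes called higher minus that of genes called lower in AL 15-month against CR 5-month mice; bars give the mean and SD. Filled points are AL 5-month (n = 5) and CR 15-month libraries (n = 6), which did not choose the genes, and CR 15-month libraries lie from -1.79 to -0.95, above all AL 5-month libraries except for 1.

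A few genes differed between the 2 contrasts. The difference of the 2 log2 fold changes, which equals the CR change at 15 months plus the CR change at 5 months, was called for 66 genes (0.389%), and 19 of them were among the 529. Of these 19, 11 were higher and 8 were lower in CR 15-month mice. Agxt2l1 changed by 3.23 in CR 15-month against AL 5-month mice and by 0.17 in AL 15-month against CR 5-month mice (difference 3.06, adjusted p = 0.0158). Its FPKM was 2.56, 2.89 and 6.24 (lowest, median, highest) in CR 5-month mice and 1.93, 4.23 and 8.23 in AL 15-month mice, above the AL 5-month range in both groups. Cry1 changed by 0.85 and 0.12 (difference 0.74, adjusted p = 0.0431), with 6.33 to 7.38 FPKM in CR 5-month mice and 6.66 to 8.56 FPKM in AL 15-month mice. In both genes AL 5-month mice were thus the lowest of the 4 groups.

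Chaperones followed another order. Hspa5 was higher by 0.43 in CR 15-month against AL 5-month mice but lower by -0.83 in AL 15-month against CR 5-month mice (difference 1.25, adjusted p = 0.00245), with 138 to 207 FPKM in CR 5-month mice and 82.9 to 113 FPKM in AL 15-month mice. Hyou1 (0.31 and -0.36) and Hspb1 (0.91 and -0.64) also had opposite signs, with an adjusted p for the difference of 0.0139 and 0.0434. Calr, Pdia4, Pdia6, Hspa1b and Dnaja4, which the study names, also differed between the contrasts (differences 0.67 to 1.71), though none was called between CR 15-month and AL 5-month mice. In AL 15-month against CR 5-month mice 14 of 18 ER chaperone genes were called lower, against 11.8% of all tested genes.

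Of the other genes called in both tests, 13 are named after their values were seen. Higher in CR 15-month mice were Nfya (0.45), a subunit of the CCAAT-binding factor NF-Y, Zbtb40 (0.75), Ccar1 (0.31), Cysltr2 (0.93), Zglp1 (0.89) and 1700102P08Rik (0.89). Lower were the RNA-binding and splicing genes Hnrpdl (-0.62) and Srsf5 (-0.41), the AMP-activated kinase subunit Prkab1 (-0.40), the gap junction gene Gja4 (-0.62), Gbp11 (-0.55), Haghl (-0.34) and E430018J23Rik (-0.38). Hnrpdl had 71.8 to 88.1 FPKM in AL 5-month mice and 42.3, 50.9 and 58.2 FPKM (lowest, median, highest) in CR 15-month mice. The groups did not overlap, and in AL 15-month against CR 5-month mice the gene changed by 0.26. Srsf5 fell from 149 ± 12 FPKM (SD, n = 5) to 112 ± 7.3 FPKM (SD, n = 6).

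**Figure D4:**
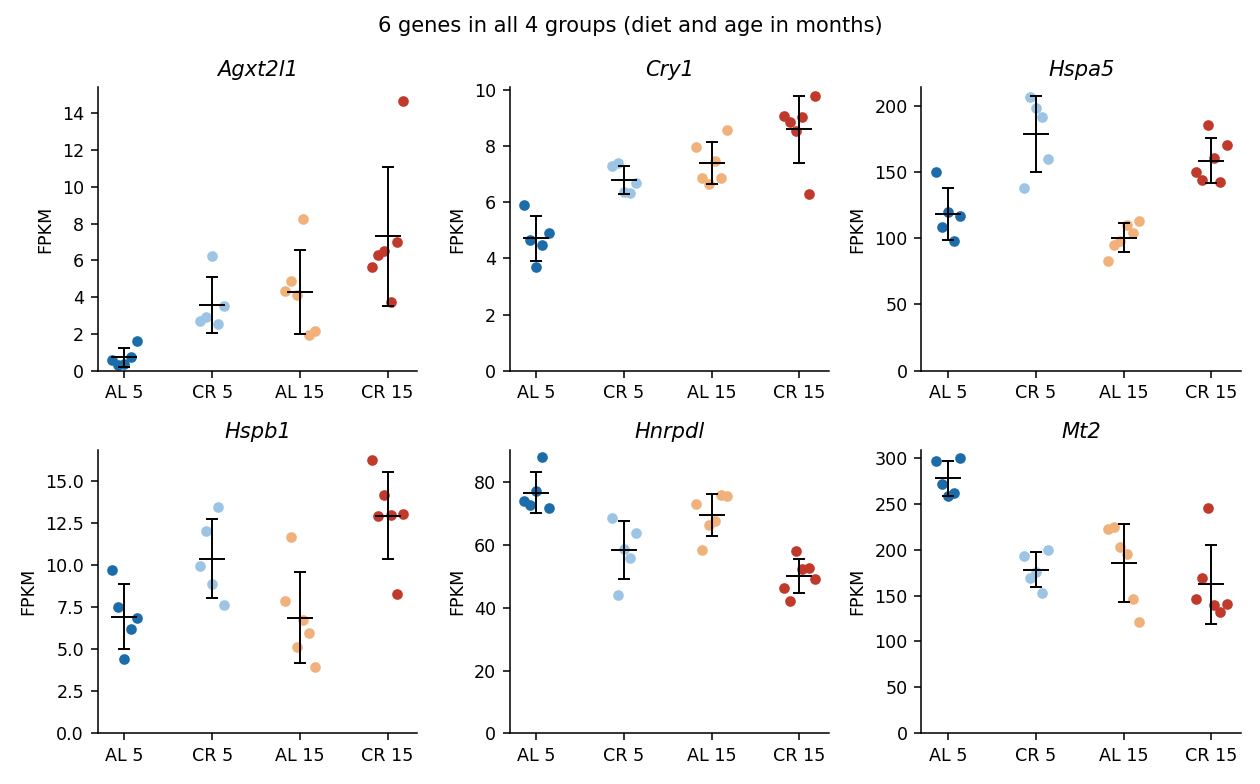
FPKM of 6 genes by library in AL and CR mice at 5 and 15 months (n = 5, 5, 6 and 6), with bars for the mean and SD. By their means, Agxt2l1 and Cry1 are lowest in AL 5-month mice and highest in CR 15-month mice, Hspa5 and Hspb1 are higher in both CR groups than in the AL group of the same age, and Hnrpdl and Mt2 are highest in AL 5-month mice.

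The 24 genes that the study names were chosen on these same libraries, so their counts are not independent evidence. Of the 24, Agxt2l1, Cit and Hspa5 were called higher and Ttr lower. Cit, which encodes citron kinase, averaged 4.92 ± 0.70 FPKM (SD, n = 5) with AL feeding against 10.8 ± 5.3 FPKM (SD, n = 6) under CR (0.97, SE 0.27, adjusted p = 0.0497), with a call in 3 of 11 fits that left out a library. The glutamate receptor subunit genes Gria1 (-0.62, adjusted p = 0.128), Grin2a (-0.63, adjusted p = 0.209) and Grin2b (-0.56, adjusted p = 0.236) were not called. Their 95% intervals ran from -1.08 to -0.16, from -1.21 to -0.06 and from -1.09 to -0.03, so decreases of 1 log2 unit were inside all of them. The dopamine receptor gene Drd5 (-1.50, interval -2.59 to -0.42, adjusted p = 0.115) had 9.91 to 13.9 FPKM in AL mice and 0.516 to 9.54 FPKM in CR mice. Crh, the corticotropin-releasing hormone gene (0.25, interval -0.41 to 0.91), and its receptor gene Crhr1 (0.46, interval 0.10 to 0.81, adjusted p = 0.140) were not called either. The neurotrophin genes Bdnf (0.12, interval -0.29 to 0.53) and Ntf3 (0.36, interval -0.53 to 1.25) had intervals that include 0. Of the 86 genes in the study's pathway lists, also chosen on these libraries, 6 were called, against 3.12% of all tested genes. They were Camk2d and Mef2c, higher, and Arpc5 (-0.57), Sema3e, Mc4r (-1.38) and Rgs14, lower. Of the 40 that the study lists as higher under CR, 38 had negative fold changes here (median -0.37, 18 at an unadjusted p under 0.05). Of the 46 listed as lower under CR, 39 were positive (median 0.46, 13 at an unadjusted p under 0.05). These directions are not independent of the choice of the genes.

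**Figure D5:**
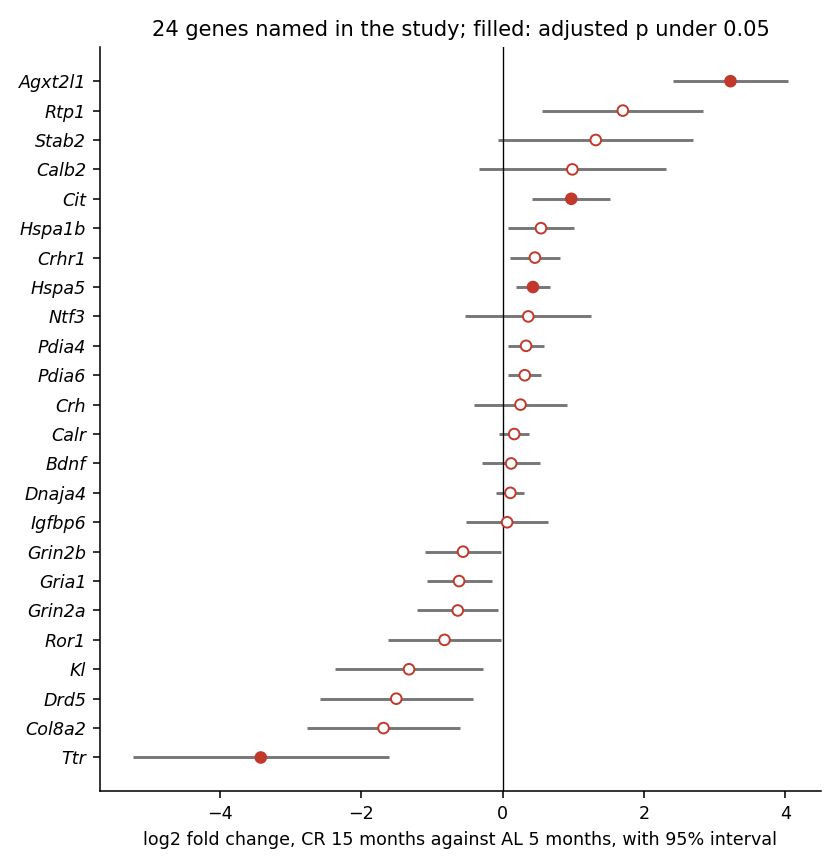
Log2 fold change between CR 15-month and AL 5-month mice (x axis, point) with its 95% interval (line) for the 24 genes named in the study, ordered by fold change. Filled points are the 4 genes with an adjusted p under 0.05, and the interval of 8 of the 20 others includes 0.

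Absence of a call did not mean equality. The 95% interval of the log2 fold change lay within 0.5 of 0 for 9769 genes (57.5%) and within 1 of 0 for 14267 (84.0%). For 2413 genes that were not called the interval reached beyond 1. Over all tested genes, called or not, the interval lay wholly beyond 1 for 83. The median half-width of the interval was 0.28. Of the 53 gene lists, 27 had no called member, and the 1084 different genes in the lists held 18 called higher (1.66%) and 28 called lower (2.58%), against 1.38% and 1.73% of all tested genes. Among the lists without a call were 69 respiratory chain genes (median -0.11, 5 at an unadjusted p under 0.05), 77 cytosolic ribosomal protein genes (-0.05, 1), 31 proteasome genes (-0.06, 3), 18 ionotropic glutamate receptor genes (-0.04, 5), 20 immediate early genes (0.24, 2) and 25 insulin, IGF and FoxO genes (0.07, 5).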

How the data were processed

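CA1 tissue was microdissected from female mice and total RNA was sequenced as mRNA libraries, 1 per mouse. The authors aligned reads to mm10 with TopHat and estimated FPKM per gene with Cufflinks, after bcl2fastq and Picard steps, as listed in the submitters' processing notes without versions. The deposited FPKM table held 23361 genes in 22 libraries. The depth of each library is unknown, because the study gives only an average over its samples, FPKM carries no read totals and at most 0.525% of low values lay on a common ratio between 2 libraries (within 0.2%).

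Genes with a mean of at least 0.1 FPKM over all libraries (16978) were fitted on log2(FPKM + 0.1) with limma 3.58.1 in R 4.3.3, with 4 group means, a mean-variance trend and two-sided Benjamini-Hochberg adjusted p under 0.05. A count test was not used, since no counts were analysed here. Single genes were also tested by an exact permutation of 5 against 6 libraries. The scripts were tested on simulated data. Figures were drawn with matplotlib 3.10.9 in Python 3.11.15.

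Named genes were, in each direction, the 12 called genes with the largest fold change, at least 1 FPKM in a group and no overlap, leaving out microRNA, small RNA, predicted and RIKEN genes, plus called or most abundant members of reported lists and the genes the study names. The comparison, its lists and its tests were chosen with earlier results of these data known. Alternatives were other pseudocounts (1 and 0.01), filters, scalings, the 2 groups alone, a replicate block, marker scores as covariates and leaving out each library. Coordinates are those of GRCm38. Same-numbered AL 5-month and CR 15-month libraries did not deviate together (correlations -0.139 to 0.0655 over 5 pairs), so the numbers were not taken to pair mice. A result that needs a withheld item is not reported here.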

Additional observations from a re-analysis of the deposited data

Results flagged for a closer look

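A single library stood far from the rest of its group in 14 of 200 tests on named genes, and such a gap arises by chance in about 1 in 20 groups. In AL 5-month mice these were Dnajb1 (library 3, 23.4 FPKM), Cacnb2 (library 2, 30.8 FPKM), Doc2a (library 0, 11.5 FPKM), Grin2a (library 2, 25.8 FPKM) and Drd5 (library 2, 13.9 FPKM). In CR 15-month mice these were Agxt2l1 (library 5, 14.7 FPKM), Krt15 (library 5, 0.0488 FPKM), Amigo2 (library 4, 16.9 FPKM), Folr1 (library 0, 0.331 FPKM), Igfbpl1 (library 4, 0.219 FPKM), Cry1 (library 4, 6.31 FPKM), Mt2 (library 2, 246 FPKM), Calb2 (library 4, 183 FPKM) and Lmo3 (library 3, 61.6 FPKM).

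The log2 fold change of CR 15-month against AL 5-month mice differed from that of AL 15-month against CR 5-month mice, by limma's test of the difference, for Agxt2l1 (3.06), Hspa5 (1.25), Hyou1 (0.67), Hspb1 (1.55), Cry1 (0.74), Hspa1b (1.71), Calr (0.78), Pdia4 (1.14), Pdia6 (0.91) and Dnaja4 (0.67). The value is the first minus the second, and adjusted p ranged from 0.00245 to 0.0434. Among genes named after their values were seen, the differences were 1700102P08Rik (1.5), Ccar1 (0.53), Cysltr2 (1.62), E430018J23Rik (-0.58), Gbp11 (-1.45), Gja4 (-1.37), Haghl (-0.61), Hnrpdl (-0.88), Nfya (0.79), Prkab1 (-0.74), Srsf5 (-0.67), Zbtb40 (0.96) and Zglp1 (1.26), with adjusted p from 0.00245 to 0.0441.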

How the results depend on the processing

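Of 2486 comparisons of a named gene with an alternative, 2040 kept their direction and their side of the threshold, 430 (60 genes) lost the call, 4 gained it and 12 (5 genes) changed sign. None of the 5 genes was called. Crh was -0.23 with the region score, -0.041 with the choroid plexus score and -0.11 without CR 15-month libraries 0 and 5. Igfbp6 was -0.14 with the choroid plexus score and ranged from -0.079 to 0.23 when single libraries were left out, with -0.029 without AL 5-month library 1 and -0.079, -0.030 and -0.068 without CR 15-month libraries 1, 2 and 5. With the region score Ror1 was 0.18, Calb2 -0.23 and Lmo3 0.056.

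With the region score as a covariate 67 genes were called (35 higher, 32 lower), with 2 cilia and 0 choroid plexus genes. In AL 15-month against CR 5-month mice 0 genes were then called, 65 of the 67 had the same sign there, 0 were called in both, and the converse count was 0. The region score did not overlap between AL 15-month and CR 5-month mice, so that fit cannot separate it from the contrast. With the choroid plexus score 97 genes were called (36 higher, 61 lower), with 3 cilia genes and 1 choroid plexus gene; AL 15-month against CR 5-month mice gave 648, of which 583 had the same sign here, while 91 of the 97 had the same sign there and 39 were called in both. With the 2 groups alone the counts were 218 (80 higher, 138 lower), 2 choroid plexus genes, 203 of the same sign and 152 called in both. Without CR 15-month libraries 0 and 5, chosen after seeing the data, they were 238 (82 higher, 156 lower), 0, 202 and 142. A mean of at least 1 FPKM gave 340 called (184 higher, 156 lower), 309 of the same sign and 225 called in both. A pseudocount of 1 left 1 choroid plexus gene. The cause of these changes was not tested.

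With the replicate number as a block, 684 genes were called, 2 choroid plexus genes among them, and Igfbp6 was -0.025; the numbers do not pair the mice.

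Leaving out 1 library gave 181 to 925 called genes, 69 to 446 higher and 112 to 479 lower, 0 to 4 choroid plexus and 7 to 9 cilia genes, 167 to 837 of the same sign and 136 to 628 called in both. AL 15-month against CR 5-month mice gave 2839 to 4021, with 2543 to 3866 of the same sign here. The higher count also moved to 156 without AL 5-month library 3 and 143 without CR 15-month library 5.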
